A study of Mus musculus with 8 samples.

Results

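Glo1, Btbd9 and Dnah8 are neighbouring genes on mouse chromosome 17 inside a stretch that is known to be duplicated in several inbred strains, and Ifi202b is an interferon-inducible gene on chromosome 1 that is known for differing alleles between strains. All probe sets of the array whose platform annotation names one of these 4 genes were taken, which gave 11 of the 45037 probe sets that are not array controls: 4 for Glo1, 3 for Btbd9, 2 for Dnah8 and 2 for Ifi202b. A probe set is a group of short probes against one transcript. Of the 11, 10 name a single gene, and 1 of the Ifi202b probe sets also names a second locus. The RNA came from pancreatic islets of 2 inbred mouse strains, AKR/J and C57Bl/6J. All mice had been on a high-fat diet for 3 months, so the strains are compared on that diet alone. There were 4 AKR/J samples (arrays 1 to 4) and 4 C57Bl/6J samples (arrays 5 to 8), each made of islets pooled from 2 mice, so the spread between arrays is a spread between pools.

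Glo1 encodes glyoxalase I, which uses glutathione to help remove methylglyoxal, a reactive by-product of glycolysis. Hagh encodes glyoxalase II, the enzyme of the next step. Btbd9 encodes a protein with a BTB domain, a fold that in many proteins binds the cullin Cul3, and Dnah8 a heavy chain of the dynein motor of cilia and sperm tails. Glp1r, the receptor through which the gut hormone GLP-1 raises insulin secretion, lies next to Dnah8. Ifi202b belongs to the HIN-200 family, a cluster of interferon-inducible genes whose proteins bind DNA, and C57BL/6J mice have been reported to carry a deletion at the start of this gene. Gene copy number and genotype were not measured on these arrays, so whether these AKR/J mice carried the duplication was not tested. Probe sequences were not used here. Whether strain differences in sequence under the probes changed the signal of any probe set below was not tested.

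The sequence of AKR/J was not used here; RefSeq promoter windows (250 bases before to 50 after the start of the gene, build GRCm38.p6, which is the C57BL/6J genome) are shown for Glo1 and Ifi202b, the members higher in AKR/J below, so that the sequence at their starts can be read beside the levels. They were searched on both strands for 6 motifs, and capitals mark the matches.
Glo1 promoter, chr17:30612610-30612909, minus strand: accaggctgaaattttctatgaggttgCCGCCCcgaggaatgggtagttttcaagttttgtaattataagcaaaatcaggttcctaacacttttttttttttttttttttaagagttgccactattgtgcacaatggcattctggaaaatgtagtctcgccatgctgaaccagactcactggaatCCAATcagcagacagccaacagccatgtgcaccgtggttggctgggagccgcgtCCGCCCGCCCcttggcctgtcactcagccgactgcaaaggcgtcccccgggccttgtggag
Ifi202b promoter, chr1:173982795-173983094, minus strand: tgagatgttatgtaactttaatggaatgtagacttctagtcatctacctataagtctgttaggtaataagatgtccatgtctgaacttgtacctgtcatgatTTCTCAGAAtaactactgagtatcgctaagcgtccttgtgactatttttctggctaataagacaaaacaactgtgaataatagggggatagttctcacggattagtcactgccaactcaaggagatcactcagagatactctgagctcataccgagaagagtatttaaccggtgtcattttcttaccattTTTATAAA
The Glo1 window held the CCAAT box (CCAAT) 65 bases before the start and the GC box (GGGCGG) on the opposite strand at 223, 11 and 7 bases before it, of which the last 2 overlap. The Ifi202b window held a gamma-activated site (TTCNNNGAA), the motif of STAT factors in interferon signalling, 148 bases before the start, and the TATA box letters (TATAAA) on both strands, overlapping, in the last bases of the window, after the start. Neither window held the letters of the interferon-stimulated response element or of the antioxidant response element (TGACNNNGC). Among the 32851 RefSeq promoter windows of this length, 37.4% held the CCAAT box, 35.7% the GC box, 8.30% the gamma-activated site, 13.6% the TATA box, 3.44% the interferon-stimulated response element and 12.4% the antioxidant response element. These matches describe the letters in the reference sequence and are not evidence of binding. The Ifi202b window comes from the strain reported to carry a deletion at the start of this gene. Whether AKR/J has the same sequence there was not tested.

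Probe sets with a detection p under 0.05 are called detected, and those detected on at least 4 of the 8 arrays were tested. Of the 11 member probe sets, 6 passed: all 4 of Glo1, 1 of Btbd9 and 1 of Ifi202b. Between 43.7% and 48.1% of all probe sets were detected per array. With limma's test and Benjamini-Hochberg adjustment over all 20772 tested probe sets, 4 of these 6 were higher in AKR/J, 1 was lower and 1 did not pass at an adjusted p of 0.05. The share of all tested probe sets was 6.59% for those higher in AKR/J, 7.7% for those lower and 14.3% for both together. The strains did not overlap for 5 of the 6, against 22.9% of all tested probe sets. The Ifi202b probe set passed the detection filter through AKR/J alone, so its place in these counts was favoured by the filter. Precision is limited by the number of arrays.

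**Figure D1:**
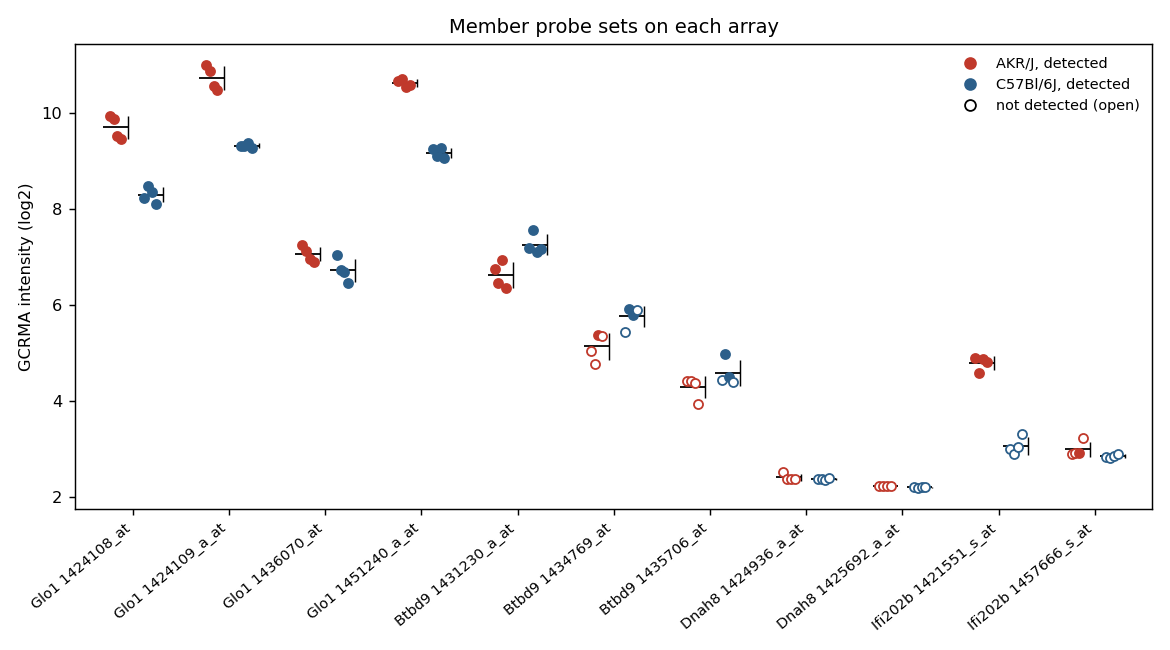
Log2 GCRMA intensity (vertical axis) of the 11 member probe sets on each array, AKR/J (red) left of C57Bl/6J (blue) in each pair. Filled points were detected, open points were not, horizontal lines are means and vertical lines SD (n = 4). For 3 of the 4 Glo1 probe sets every AKR/J array lies above every C57Bl/6J array, whereas for Btbd9 1431230_a_at and 1434769_at every AKR/J array lies below.

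Glo1 transcript was higher in AKR/J by 3 of its 4 probe sets. The brightest, 1424109_a_at, was at log2 intensities of 11.01, 10.89, 10.57 and 10.49 on AKR/J arrays 1 to 4 and at 9.31, 9.32, 9.39 and 9.27 on C57Bl/6J arrays 5 to 8. The 4 AKR/J arrays all lay above the 4 C57Bl/6J arrays, with a gap wider than the spread within either strain. The mean ± SD was 10.74 ± 0.25 over the 4 AKR/J arrays and 9.32 ± 0.05 over the 4 C57Bl/6J arrays, a 2.67-fold difference with a 95% confidence interval of 2.20 to 3.24 (limma adjusted p = 0.000231). Islet preparations mix cell types, and fewer cells of a type and less RNA per cell cannot be told apart in such RNA.

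The other Glo1 probe sets of the same source record gave differences of similar size. Probe set 1424108_at was at 9.95, 9.89, 9.53 and 9.47 in AKR/J and at 8.24, 8.49, 8.37 and 8.12 in C57Bl/6J, a 2.65-fold difference (95% confidence interval 2.13 to 3.30, limma adjusted p = 0.000459). Probe set 1451240_a_at was at 10.67, 10.72, 10.54 and 10.59 in AKR/J and at 9.25, 9.11, 9.28 and 9.07 in C57Bl/6J, a 2.74-fold difference (2.42 to 3.09, limma adjusted p = 1.97e-05). Neither overlapped between strains. The annotation gives these 3 probe sets 1 shared source record, so they are repeated readings of 1 gene and not independent results. Ranked by excess in AKR/J they stood 151st, 166th and 168th among the 20772 tested probe sets. Within AKR/J, arrays 1 and 2 were above arrays 3 and 4 for 1424109_a_at, 1424108_at and 1451240_a_at. For 1424109_a_at the strain difference was 1.63 over arrays 1, 2, 5 and 6 and 1.20 over arrays 3, 4, 7 and 8, with limma adjusted p of 0.0151 and 0.0326.

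The fourth Glo1 probe set, 1436070_at, which the annotation derives from another record, did not pass. It was at 7.25, 7.13, 6.97 and 6.91 in AKR/J and at 7.04, 6.73, 6.69 and 6.45 in C57Bl/6J, so that the strains overlapped through C57Bl/6J array 5. Its difference was 1.26-fold (1.02 to 1.56, limma adjusted p = 0.135). With arrays 1, 2, 5, 6 and arrays 3, 4, 7, 8 as blocks, which no label gives, the adjusted p was 0.0496. The contrast between it and the brightest probe set was tested directly as the per-array gap between the 2 log2 values. This gap was 3.67 ± 0.10 in AKR/J against 2.59 ± 0.23 in C57Bl/6J (mean ± SD, n = 4 per strain), without overlap, and its strain difference of 1.08 had a two-sided exact permutation p of 0.0286, the lowest value possible with 4 arrays per strain. Over the 3 pairs of Glo1 probe sets its adjusted value was 0.0857, the lowest that a single differing pair can reach in this design, so the adjusted test could not pass. For the brightest against 1424108_at and 1451240_a_at the gaps differed between strains by 0.01 and -0.04 (exact permutation p = 0.914 and 0.743, adjusted 0.914 for both).

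Glo1 was detected on every array by all 4 probe sets, and the deposited MAS5-type signals, the arrays' other summary, gave the same order of strains for the bright ones. For 1424109_a_at these signals were 2365.6, 2135.7, 1793.2 and 1798.4 in AKR/J and 881.5, 884.2, 946.4 and 933.1 in C57Bl/6J, as deposited. After a floor and quantile normalization the log2 difference was 1.13 for 1424109_a_at (limma adjusted p = 0.000692), 1.28 for 1424108_at (0.000731) and 1.12 for 1451240_a_at (0.00107). For 1436070_at it was 0.06 (limma adjusted p = 0.776).

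Btbd9, next to Glo1, went the other way, with lower values in AKR/J. The one tested probe set, 1431230_a_at, was at 6.75, 6.47, 6.95 and 6.37 in AKR/J and at 7.20, 7.58, 7.11 and 7.16 in C57Bl/6J. Every AKR/J array lay below every C57Bl/6J array, the closest being AKR/J array 3 and C57Bl/6J array 7. The mean ± SD was 6.64 ± 0.27 in AKR/J against 7.27 ± 0.21 in C57Bl/6J (n = 4 per strain), a log2 difference of -0.63 (95% confidence interval -0.99 to -0.27), or 1.55-fold in favour of C57Bl/6J (limma adjusted p = 0.0322). This call was lost when any of arrays 1, 2, 4, 5, 6 or 8 was left out, where the adjusted p reached 0.0874. The deposited MAS5-type signals, a separate summary of the same arrays, gave a log2 difference of -0.54 (limma adjusted p = 0.104), and the strains overlapped there.

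The other Btbd9 probe sets were mostly not detected and were not tested. Probe set 1434769_at, detected on 1 AKR/J and 2 C57Bl/6J arrays, was at 5.06, 4.78, 5.37 and 5.37 in AKR/J and at 5.44, 5.93, 5.80 and 5.90 in C57Bl/6J, a log2 difference of -0.62. Probe set 1435706_at, detected on 0 AKR/J and 2 C57Bl/6J arrays, was at 4.43, 4.43, 4.38 and 3.95 in AKR/J and at 4.43, 4.98, 4.51 and 4.41 in C57Bl/6J. Its strains overlapped, with a log2 difference of -0.29. With no detection filter, where 4.64% of all 45037 probe sets were called, the limma adjusted p was 0.111 for 1434769_at and 0.36 for 1435706_at. Of the BTB partners, Cul3 did not pass (mean ± SD 10.20 ± 0.06 in AKR/J, 10.37 ± 0.23 in C57Bl/6J, n = 4 per strain, limma adjusted p = 0.378). Rbx1, the ring protein of cullin complexes, was not detected on any array by a probe set that names it alone. Probe sets that name several genes were not considered for it.

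Dnah8 was not detected on any of the 8 arrays by either probe set. Log2 intensities ran from 2.37 to 2.53 in AKR/J against 2.37 to 2.40 in C57Bl/6J for 1424936_a_at, and from 2.22 to 2.24 in AKR/J against 2.20 to 2.22 in C57Bl/6J for 1425692_a_at. These values are not above background, so no strain difference of Dnah8 could be measured, and no fold is given. Of 20 other genes of axonemal dyneins and cilia, 14 had a probe set of their own, 9 of these were not detected on any array and 2 were tested. Dnah9, another dynein heavy chain, was at 4.73, 4.18, 3.46 and 4.72 in AKR/J and at 2.08, 2.77, 3.26 and 3.13 in C57Bl/6J (log2 difference 1.47, limma adjusted p = 0.0274). It was detected on every array, and its adjusted p was 0.0909 with no detection filter. Dnal1, a dynein light chain, did not pass (log2 difference 0.11, limma adjusted p = 0.652). The median of the 2 was 0.79, against 0.00 for all 10891 tested genes.

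**Figure D2:**
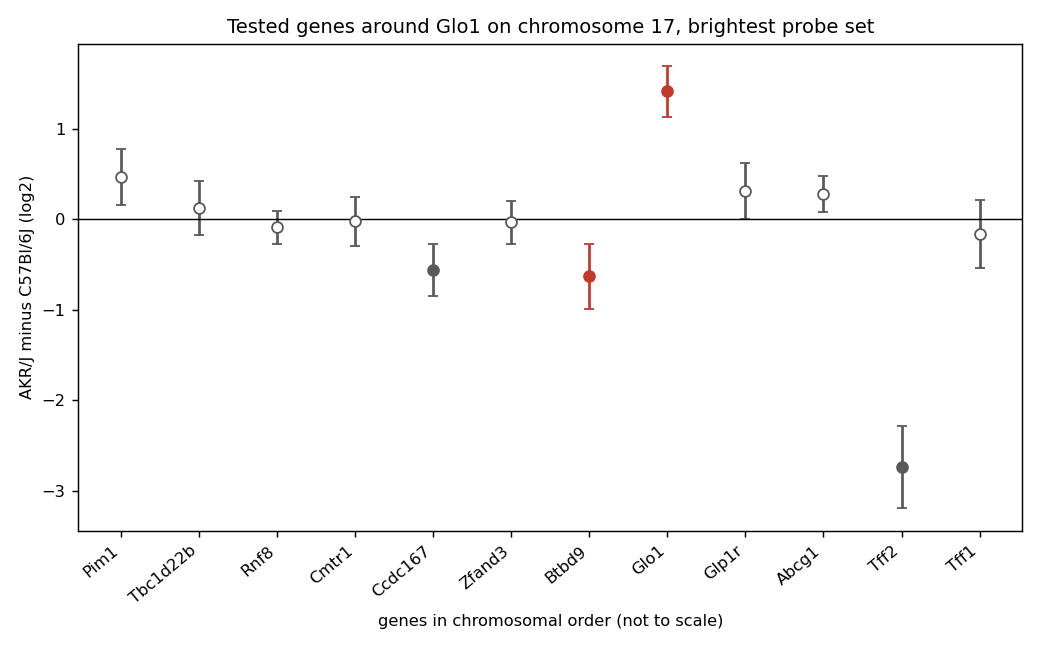
Strain difference in log2 (AKR/J minus C57Bl/6J, vertical axis) of the 12 tested genes around Glo1 in their order on chromosome 17, each by its brightest probe set, with 95% confidence intervals from limma. Filled points passed an adjusted p of 0.05 and members are red. Glo1 stands at 1.42, while its tested neighbours Btbd9 and Glp1r stand at -0.63 and 0.31.

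Glp1r, the tested gene on the other side of Dnah8, was at 8.86, 8.77, 8.72 and 8.80 in AKR/J and at 8.67, 8.76, 8.20 and 8.27 in C57Bl/6J. The strains overlapped, and the log2 difference of 0.31 did not pass (95% confidence interval 0.00 to 0.62, limma adjusted p = 0.161). On the Btbd9 side, Zfand3, a zinc finger gene, differed by -0.03 (limma adjusted p = 0.873), a value that took the other sign under 6 of 18 alternative settings. Ccdc167, a coiled-coil gene, was at 6.24, 6.28, 6.63 and 6.62 in AKR/J and at 7.12, 6.86, 7.17 and 6.89 in C57Bl/6J (log2 difference -0.56, limma adjusted p = 0.0217). Leaving out array 1, 2, 5 or 7 ended the call of Ccdc167 (highest adjusted p 0.0606), as did the MAS5-type signals (0.0695). Its call was lost under 8 of 18 alternative settings in all, with limma adjusted p up to 0.244.

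On the Glp1r side, Abcg1, a cholesterol exporter, differed by 0.28 (limma adjusted p = 0.0713; 0.0483 without AKR/J array 4). Tff2, a trefoil peptide of mucus-secreting epithelium, was at 8.23, 8.73, 9.07 and 8.63 in AKR/J and at 11.36, 11.22, 11.81 and 11.23 in C57Bl/6J, 6.68-fold higher in C57Bl/6J (log2 difference -2.74, limma adjusted p = 9.56e-05). In all, of the 17 genes other than the members that made up this neighbourhood, 10 were tested, of which limma called 2 lower in AKR/J and 0 higher, and 8 did not pass. The share over all tested genes was 7.79% higher in AKR/J, 8.53% lower and 16.3% in all, so counts of 0 and 2 among 10 are near the background. The median difference of the 10 was -0.03, against 0.00 for all tested genes.

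Of the genes that handle methylglyoxal beside Glo1, 11 of 14 had a probe set of their own and 8 were tested; 1 was higher in AKR/J, 1 was lower and 6 did not pass, with a median difference of 0.04. Called genes were 16.3% of all those tested, and 2 of 8 is near that share. Hagh, which encodes glyoxalase II, was at 9.65, 9.87, 9.67 and 9.81 in AKR/J and at 9.29, 9.39, 9.57 and 9.21 in C57Bl/6J, a 1.31-fold difference (1.12 to 1.52, limma adjusted p = 0.0345). AKR/J arrays were all above C57Bl/6J arrays, but leaving out array 1, 2, 4, 5, 6 or 8 ended the call (highest adjusted p 0.0915), as did the MAS5-type signals (0.116). Hagh lost its call under 10 of 18 alternative settings in all, with limma adjusted p up to 0.375. Aldh2, the mitochondrial aldehyde dehydrogenase, was at 8.91, 8.91, 9.28 and 8.99 in AKR/J and at 9.51, 9.77, 9.56 and 9.52 in C57Bl/6J (log2 difference -0.57, limma adjusted p = 0.01). Its call was lost with arrays 1, 2, 5 and 6 alone and with arrays 3, 4, 7 and 8 alone, where the adjusted p reached 0.243. The 6 that did not pass were Ldhd, Glod4, Park7, Akr1a1, Aldh9a1 and Tpi1, with log2 differences between 0.02 for Ldhd and 0.17 for Park7. Glod5, Akr1b8 and Ager were not detected on any array.

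Ifi202b was detected on all 4 AKR/J arrays and on no C57Bl/6J array by probe set 1421551_s_at. Its log2 intensities were 4.91, 4.60, 4.88 and 4.82 in AKR/J and 3.01, 2.89, 3.05 and 3.32 in C57Bl/6J, with a gap between the strains wider than the spread within either. The level in AKR/J was low beside the array's range. Because the C57Bl/6J values are not above background, the 3.33-fold difference in favour of AKR/J is an estimate against background (log2 difference 1.73, 95% confidence interval 1.48 to 1.99, limma adjusted p = 5.06e-05). Because the detection filter let it through on AKR/J arrays alone, its p is no independent support; with no filter the adjusted p was 0.000374. The deposited MAS5-type signals of 1421551_s_at were 40.7, 31.5, 38.0 and 49.1 in AKR/J and 2.0, 6.5, 1.9 and 2.3 in C57Bl/6J. On that scale the log2 difference was 3.81 (limma adjusted p = 0.000253), more than with the GCRMA values, and the C57Bl/6J part of it rests on signals that were not detected.

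The second Ifi202b probe set, 1457666_s_at, whose annotation also names a second locus, was detected on AKR/J array 3 alone. It was at 2.90, 2.93, 2.91 and 3.24 in AKR/J and at 2.84, 2.82, 2.86 and 2.91 in C57Bl/6J, and the strains overlapped. Its MAS5-type signals were 15.2, 18.8, 22.9 and 29.5 in AKR/J and 0.3, 0.3, 8.2 and 8.4 in C57Bl/6J, without overlap. It was too dim to be tested. HIN-200 genes are close paralogs, and signal shared between them cannot be told apart here.

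**Figure D3:**
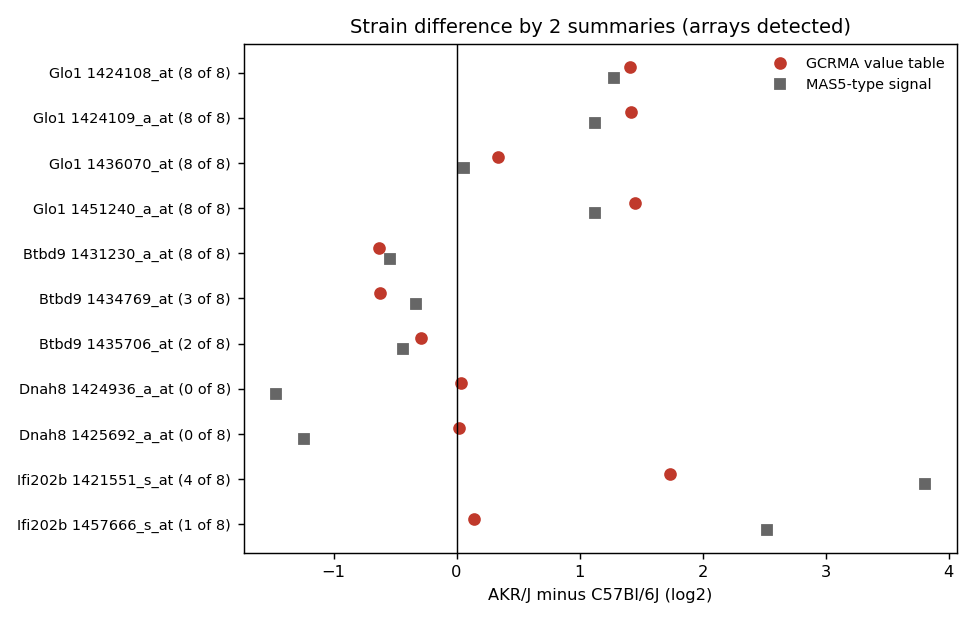
Strain difference in log2 (AKR/J minus C57Bl/6J, horizontal axis) of the 11 member probe sets by the GCRMA values (circles) and by the MAS5-type signals after a floor and quantile normalization (squares), with the number of arrays on which each was detected. The 3 bright Glo1 probe sets lie above 1 by both, the 3 Btbd9 probe sets lie below 0 by both, and the gaps between the summaries are widest for the probe sets of Dnah8 and Ifi202b, detected on 0 to 4 arrays.

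Mndal and 3 probe sets that name several symbols, among them genes of the Ifi202b cluster, gave lower signals in AKR/J, the opposite direction to Ifi202b. In the RefSeq order the cluster runs Ifi209, Ifi208, Ifi207, Ifi204, Mndal, Ifi211, Ifi203, Ifi202b and Ifi205. Mndal, a HIN-200 gene near Ifi202b, was detected on 0 of 4 AKR/J arrays and on all 4 C57Bl/6J arrays by both of its probe sets. The brighter, 1452231_x_at, was at 3.23, 2.91, 2.90 and 3.18 in AKR/J and at 6.74, 6.78, 6.24 and 6.31 in C57Bl/6J. Against the undetected AKR/J values this was 11.0-fold in favour of C57Bl/6J (log2 difference -3.47, limma adjusted p = 7.51e-06). The other, 1426906_at, was at 2.88, 2.82, 2.81 and 2.83 in AKR/J and at 5.84, 5.07, 5.60 and 4.19 in C57Bl/6J, likewise 5.06-fold in favour of C57Bl/6J (adjusted p = 0.00245 by limma). Both passed the detection filter through C57Bl/6J alone, as did 1448775_at below, so they had to differ and their p-values and their place in counts are no independent support.

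Of the 16 listed HIN-200 genes other than Ifi202b, 7 had a probe set of their own and 2 were tested. Mndal was lower in AKR/J and Ifi209 did not pass by GCRMA values, which sat at 2.22 to 2.23 on every array (log2 difference 0.00, limma adjusted p = 0.972), though its log2 difference was -1.16 with the MAS5-type signals (limma adjusted p = 0.0229). The median of the 2 was -1.73, against 0.00 for all tested genes, but it rests on Mndal, which the filter let through on C57Bl/6J arrays alone. A further 4 tested probe sets name several symbols at once and so no single gene. Of these, 3 were lower in AKR/J, where 7.7% of all tested probe sets were called lower. Probe set 1448775_at names Ifi203, Ifi203-ps and a further locus. Detected on 0 AKR/J and 4 C57Bl/6J arrays, it favoured C57Bl/6J by 8.70-fold against the undetected AKR/J values (adjusted p = 0.00097 by limma). Probe sets 1452348_s_at and 1452349_x_at, detected on 3 AKR/J and 4 C57Bl/6J arrays, favoured C57Bl/6J by 7.42-fold (0.000496) and 9.89-fold (0.00195). Both name Ifi211 and Ifi205, and 1452348_s_at also names Mndal and Ifi204. They overlap each other and Mndal, so they are not separate results. The fourth, 1451567_a_at, which names the same symbols as 1448775_at and another locus, did not pass (log2 difference 0.21, limma adjusted p = 0.602).

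**Figure D4:**
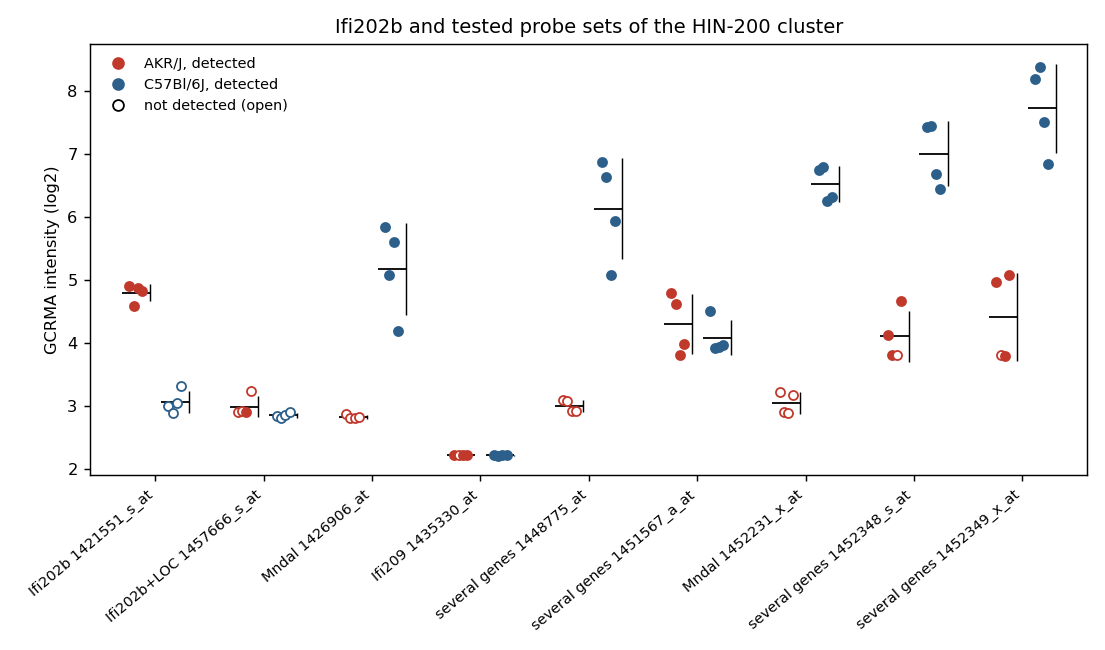
Log2 GCRMA intensity (vertical axis) on each array of the 2 Ifi202b probe sets and the 7 tested probe sets of other HIN-200 genes, AKR/J (red) left of C57Bl/6J (blue), with filled points detected, means and SD (n = 4). Ifi202b 1421551_s_at is higher in AKR/J, while 5 of the 7 others are higher in C57Bl/6J, of which 3 were detected in C57Bl/6J alone. Of all tested probe sets 7.7% were called higher in C57Bl/6J.

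Hsd11b1, which makes active glucocorticoid and was reported in mouse fat tissue to follow Ifi202b, was detected on 0 AKR/J and 3 C57Bl/6J arrays and so was not tested with the filter. It was at 5.63, 5.77, 5.75 and 6.50 in AKR/J and at 7.01, 7.20, 7.46 and 6.87 in C57Bl/6J, without overlap. The 2.33-fold difference in favour of C57Bl/6J is an estimate against AKR/J values that were not detected, and not a minimum. With the MAS5-type signals the log2 difference was -0.37 and the strains overlapped.

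Genes of the interferon response, by which HIN-200 genes are induced, were mostly lower in AKR/J where they passed. Of 22, 16 were tested, of which 1 was higher in AKR/J, 6 were lower and 9 did not pass, with a median difference of -0.32; of all tested genes, 7.79% were called higher and 8.53% lower. Usp18, an inhibitor of interferon signalling, was higher in AKR/J (log2 difference 0.53, limma adjusted p = 0.0226), and the lower ones were Oasl2, Rsad2, Ifih1, Igtp, Irgm1 and Bst2, by 0.41 for Irgm1 up to 3.00 for Rsad2 on the log2 scale. With the MAS5-type signals Irgm1 (limma adjusted p = 0.116) and Bst2 (0.119) did not pass, while the other called ones did.

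Markers of other cells moved with strain on the same arrays, where 8.53% of all tested genes were called lower in AKR/J and 7.79% higher. Of 15 tested macrophage and myeloid markers, 9 were lower in AKR/J and 0 were higher, and their summed intensity was 2044 to 2583 in AKR/J against 3576 to 4723 in C57Bl/6J; all 16 listed were detected on at least 1 array. Of 14 tested acinar markers, 13 were lower in AKR/J, with sums of 213740 to 243800 in AKR/J against 350905 to 361454 in C57Bl/6J, and Rbpjl was not detected. With the MAS5-type signals Cpa1, Cpb1, Cela1, Cela3b, Prss2, Ctrb1 and Cel did not pass (limma adjusted p from 0.0534 for Cpa1 to 0.792 for Prss2). Ctrb1 took the other sign there (log2 difference 0.08), and the other called acinar markers passed. Of 6 tested lymphocyte and plasma cell markers, 2 were lower in AKR/J, with sums of 126 to 299 in AKR/J against 378 to 1147 in C57Bl/6J, and Cd3e, Cd3g and Cd2 were not detected. Of 8 tested endothelial markers, 4 were higher in AKR/J, with sums of 3945 to 4481 in AKR/J against 3352 to 3861 in C57Bl/6J. Of these called ones, Cdh5 (limma adjusted p = 0.0605), Tek (0.16) and Esam (0.196) did not pass with the MAS5-type signals, and Ramp2 (0.0106) did. Among the called myeloid and lymphocyte markers, Tyrobp (0.0634), Lyz2 (0.217) and Ptprc (0.124) did not pass there, and the others did. The islet markers Ins2, Iapp, Gcg, Sst and Ppy were detected in both strains, with sums of 181120 to 197285 in AKR/J against 159348 to 170573 in C57Bl/6J, and Ppy alone passed. The part of these cells in the differences of Glo1, Btbd9, Mndal and Ifi202b was not tested.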

How the data were processed

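RNA of islets was measured on 8 Affymetrix arrays with 5 µg of total RNA each, per the labels. The value table holds intensity values summarised by the authors (GCRMA in the submitters' processing notes, version not given in the sources used here); they run from 1.53 to 69278 on a linear scale and were log2-transformed here, with no further normalization (quantiles of the arrays within 0.0904). Per the file headers, each array's own deposited file gives a signal intensity of MAS5 type and a detection p-value. Columns matched their arrays (r of at least 0.755 for matching and at most 0.511 for other pairs). GCRMA shrinks dim probe sets towards a common background, which compresses their differences.

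Of 45101 probe sets, 64 controls were left out; platform annotation names 1 gene for 34945. AKR/J minus C57Bl/6J was fitted with limma 3.58.1 (lmFit, eBayes; R 4.3.3) on probe sets that 4 or more arrays detected. A gene is its brightest tested probe set. Where a strain was detected on no array, the fold is taken against the higher, per array, of its own value and the lowest detected value. For the folds printed this equalled the fold of the strain means, so they are estimates and not minimum values. Pairs of probe sets were compared by exact permutation over 70 assignments. The MAS5-type signals were floored at 1.5, their 5th percentile, before log2 and quantile normalization. The fit was tested on simulated data. Probe sets naming a member were all described; named neighbours were those in the stretch from Btbd9 to Glp1r, the 2 nearest tested on each side and every called one; of other lists every called member or the 2 brightest. Alternatives were other filters, normalizations, weights, summaries and sets of arrays. Members and lists were chosen with earlier results of these data known. RefSeq (GRCm38.p6) gave gene order and promoters: 3 of the 4 members matched a promoter entry. Python 3.11.15 and matplotlib 3.10.9 were used for the figures.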

Additional observations from a re-analysis of the deposited data

Results flagged for a closer look

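In 3 of 38 groups of 4 arrays examined 1 array stood apart from the others by Dixon's measure, the gap to its nearest neighbour as a share of the group's range (chance gives about 1 in 20 groups). All 3 were dim AKR/J groups. Btbd9 1435706_at was at 3.95 on AKR/J array 4, against 4.38 to 4.43 on the other AKR/J arrays (share 0.894). Dnah8 1424936_a_at was at 2.53 on AKR/J array 1, against 2.37 to 2.39 on the others (share 0.91). Ifi202b 1457666_s_at was at 3.24 on AKR/J array 4, against 2.90 to 2.93 on the others (share 0.935). None of these 3 probe sets was detected on the array that stood apart, and none was tested.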

How the results depend on the processing

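Each of the 3 bright Glo1 probe sets and Ifi202b 1421551_s_at kept its direction and its call under every alternative run (18 or 19 for Glo1, 17 for Ifi202b), with log2 differences of 1.12 to 1.63 for Glo1 and 1.67 to 3.81 for Ifi202b. The Ifi202b probe set passed the detection filter through AKR/J alone, so its calls in the filtered runs are no independent support. Glo1 1436070_at (0.34) passed with arrays 1, 2, 5, 6 and arrays 3, 4, 7, 8 as blocks, which are not labelled batches (adjusted p = 0.0496). Btbd9 1431230_a_at kept its sign throughout, but lost its call with no filter (-0.63, adjusted p = 0.09), with the MAS5-type signals (-0.54), with arrays 1, 2, 5 and 6 alone (-0.78, adjusted p = 0.104), with arrays 3, 4, 7 and 8 alone (-0.48, adjusted p = 0.381) and without any of 6 single arrays (-0.73 to -0.52 over all 8); no filter tests more probe sets and these subsets hold fewer arrays, and for the others the cause was not tested. With the mean of all its probe sets Glo1 differed by 1.15 and Btbd9 by -0.51 (exact permutation p = 0.0286 for both). This p is the lowest possible with 4 arrays per strain. The Btbd9 mean includes 1434769_at and 1435706_at, which were mostly not detected and were not tested. Probe sets called fell to 1054 with arrays 1, 2, 5 and 6 alone and 403 with arrays 3, 4, 7 and 8 alone, against 2968, and were 2047 to 2820 without single arrays. The contrast of 1424109_a_at with 1436070_at stayed between 0.97 and 1.15. With 1424108_at it changed sign with the MAS5-type signals (-0.16), a further quantile normalization (-0.0016), and without arrays 1 and 6 (-0.053 to 0.054 over all single arrays). With 1451240_a_at it changed sign with the MAS5-type signals (0.0013) and without array 4 (-0.11 to 0.031). Zfand3 changed sign with the MAS5-type signals (0.14), centring (0.012), array weights (0.0027), arrays 1, 2, 5 and 6 alone (0.048) and without arrays 1 and 7 (-0.10 to 0.056). No paired analysis was possible because the strains share no replicate number. Dim signals leave only a fold against background for Ifi202b and no measured difference for Dnah8.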

Other observations

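The genes whose levels over the 8 arrays were most like those of the members are given as a description, since strain alone makes many genes alike and the arrays are few. For Glo1 1424109_a_at they were Nt5c2 (Pearson r = 0.994), Brk1 (0.994) and Psmd11 (0.993), whose log2 differences were 0.53, 0.79 and 0.76. After each strain's mean was removed they were Zc3h13 (0.98), Tcta (0.976) and Nt5c2 (0.97). For Btbd9 1431230_a_at they were Plpbp (0.985), Neurod1 (0.981), a transcription factor of endocrine cells, and Cox17 (0.981), and with strain means removed Gtf2ird1 (0.98), Wnk1 (0.972) and Mtch1 (0.969). For Ifi202b 1421551_s_at they were Cnot7 (0.999), Sparcl1 (0.996) and Ppp2r2c (0.993), and with strain means removed Il20ra (0.976), Cipc (0.971) and Ecm1 (0.969). Between the Glo1 probe sets, r over the 8 arrays with strain means removed was 0.883 for 1424108_at and 1424109_a_at, and 0.55 to 0.697 for the other pairs.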
